A study of Mus musculus with 13 samples.

Results

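Adult mouse islets (n = 2 arrays) were compared with purified islet progenitors at day 0 of differentiation (n = 4 arrays), which spans the development of the endocrine pancreas from the progenitor to the mature islet. The samples were taken by their titles and make up 6 of the 13 arrays of the series. The others are progenitors at day 1 (n = 3) and day 4 (n = 2) and embryonic stem cells (n = 2). All 6 are labelled as pancreas of C57BL/6 mice, with no transgene, treatment or dose given, and adult islets served as a positive control. Neither the age of the donors, nor the number of animals behind an array, nor the way the progenitors were purified is given in the sources used here. Total RNA was hybridised to single-colour Illumina bead arrays, and the levels below are the log2 intensities that the authors deposited. The labels number the replicates without saying whether each had its own animals or culture. The spread behind every p-value is that among these arrays and can be technical in part.

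Endocrine cells of the pancreas arise from progenitors that switch on the transcription factor Neurog3 for a short time, leave the cell cycle and become alpha, beta, delta, PP or epsilon cells. In rodents the new hormone cells are immature: beta cells already make insulin, but acquire regulated, glucose-coupled secretion and markers such as urocortin 3 around and after birth. Fetal tissue also carries a programme of imprinted and oncofetal growth genes that adult organs largely silence.

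Neurog3 went with the labels, bright on each day 0 array and low in adult islets. Insulin, glucagon and somatostatin transcripts were among the brightest signals in adult islets. Insulin and glucagon did not pass between the groups, so they do not tell adult islets from day 0. Over all genes tested, day 0 arrays correlated with each other at 0.950 to 0.977, the adult arrays at 0.989, and day 0 with adult arrays at 0.827 to 0.870, as a description across genes. Between 43.9% and 46.1% of the probes on an array exceeded a background level of 7.24. A gene was measured by its brightest probe among those above that level on at least 2 arrays, which left 10332 genes. The mean level of 25 measured acinar markers ran from 9.11 to 10.36 at day 0 and was 13.43 and 13.04 in adult islets, and for each rise below the part of such other cells was not tested. In these bulk samples, fewer cells of a type and less RNA per cell cannot be told apart.

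Of the 10332 genes, 3537 (34.2%) passed an adjusted p under 0.05 in limma. Adult islets were higher for 1528 (14.8%) and lower for 2009 (19.4%), the shares against which the list counts below are to be read. A change of at least 2-fold was reached by 685 rises and 564 falls, and one of at least 16-fold by 31 rises and 10 falls. The median difference over all genes, adult minus day 0, was -0.07 on the log2 scale, on which all differences are given with their standard error (SE). No array of one group overlapped the other for 2413 genes that were higher (23.4%) and 3396 that were lower in adult islets (32.9%). There were 214 genes that rose without passing background on any day 0 array, and 349 that fell with no adult array above it. Adult islets rest on few arrays: 2051 genes passed without adult replicate 1 and 1921 without adult replicate 2. The share of calls that were higher was 43.2%, and became 53.3% after cyclic loess normalization. Of the 15 largest rises, 10 were acinar markers, 2 were Reg genes and 2 belonged to the beta cell maturation list.

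**Figure D1:**
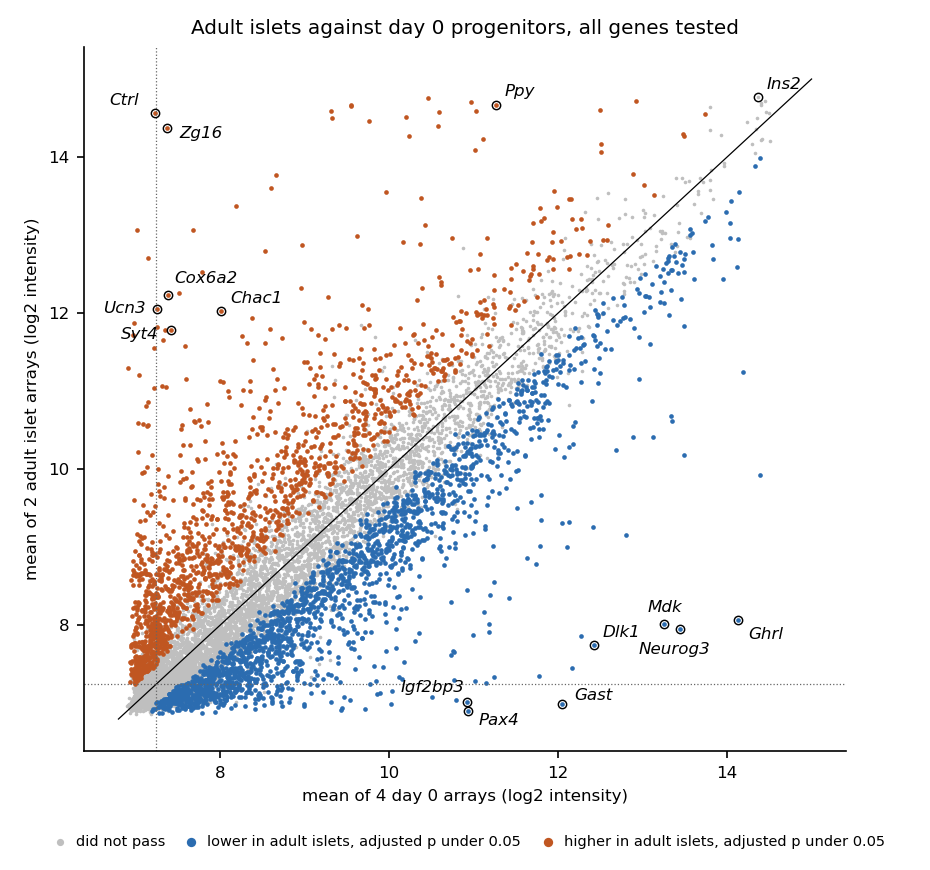
Mean log2 intensity of each tested gene on the 4 day 0 arrays (x axis) and the 2 adult islet arrays (y axis); coloured points passed an adjusted p under 0.05, the solid line marks equal levels and the dotted lines the background level of 7.24. Neurog3, Ghrl, Mdk and Gast lie far to the lower right, Ctrl, Zg16, Ucn3 and Cox6a2 far to the upper left, and Ins2 stays at the top of both axes.

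Most endocrine progenitor genes were lower in adult islets. Of 15 measured endocrine progenitor genes, 11 fell and 0 rose, with a median of -1.40. The count depended on the probe: with the second brightest probe of a gene, where there was one, 6 fell and 1 rose (median -0.30). Neurog3, the factor that commits cells to the endocrine lineage, read 13.56, 13.44, 13.79 and 12.98 at day 0 and 8.27 and 7.64 in adult islets. It fell by 5.49 ± 0.52 (adjusted p = 2.0e-05), with a wide gap between the groups. Pax4, a repressor downstream of Neurog3 that favours the beta and delta fates, read 11.04, 10.86, 11.13 and 10.71 at day 0. In adult islets it was at 6.90 and 6.91, not well above background, which makes day 0 at least 12.9-fold higher (adjusted p = 3.5e-07). By day 4 both had largely gone: Neurog3 was at 8.97 and 8.55 and Pax4 not well above background, and neither passed the test between day 4 and adult islets (adjusted p = 0.461 and 0.836).

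Other members behaved less uniformly. Mfng, a fringe that tunes Notch signalling, fell by 2.65 ± 0.24 (adjusted p = 1.5e-05), but its dimmer probe did not pass, and its adjusted p reached 0.96 over the alternatives from a lowest value of 4.2e-06. Runx1t1, a transcriptional co-repressor, fell by 2.47 ± 0.24 (adjusted p = 2.4e-05), whereas its dimmer probe rose by 1.39, so the direction of this gene depends on the probe. Neurod1, which carries the endocrine programme on after Neurog3, read 9.21, 8.89, 9.44 and 10.93 at day 0 and 8.18 and 8.25 in adult islets. Its fall of 1.40 ± 0.42 had an adjusted p of 0.025, which ran from 0.0014 to 0.129 over the alternatives and was above the threshold without either adult replicate. Sox4, a factor of early endocrine commitment, lay between 7.06 and 7.37 on these 6 arrays, near background, and gave no call (adjusted p = 0.813).

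Genes of the pancreatic trunk and of multipotent progenitors fell as well, 7 of 8 measured with 1 rise and a median of -0.997. There were 3 falls without adult replicate 1 and 2 without adult replicate 2. Tead2, a partner of the Hippo effector Yap, was at 9.86, 9.42, 9.82 and 8.61 at day 0 and at 7.34 and 7.22 in adult islets. It fell by 2.15 ± 0.37 (adjusted p = 0.001), a call present under each alternative tried. Sox9, the factor that maintains duct-like progenitors, was above background on all 4 day 0 arrays (7.69 to 8.59) and on neither adult array (7.10 and 7.22), at least 1.91-fold lower there (adjusted p = 0.007). Gata6, which specifies the pancreatic bud, fell by 1.59 ± 0.37 (adjusted p = 0.007). Over the alternatives the adjusted p of Sox9 ran from 7.6e-04 to 0.064, the highest without adult replicate 1, and that of Gata6 from 7.3e-05 to 0.0612, the highest without adult replicate 2.

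Factors that define the islet lineages fell or did not pass. Of 18 measured identity transcription factors, 9 fell, 0 rose and 9 did not pass, 6 of the 18 were above background on no adult array, the median was -0.45, and 7 falls were counted without adult replicate 1 and 5 without adult replicate 2. Isl1, a LIM factor of all endocrine cells, went from 13.39, 13.85, 13.14 and 13.59 to 11.92 and 11.76, a difference of -1.65 ± 0.20 (adjusted p = 1.4e-04). It was still at 13.26 and 13.28 on day 4, and passed between day 4 and adult islets (adjusted p = 0.002). Nkx2-2, needed for beta and alpha cells, dropped by 1.85 ± 0.26 from 11.82 to 12.85 on the day 0 arrays to 10.34 and 10.31 (adjusted p = 3.1e-04). Its dimmer probe did not pass, at an adjusted p of 0.399, against a lowest value of 5.9e-05 over the alternatives. Pdx1, the master factor of pancreas and beta cells, stood at 10.63, 11.30, 11.37 and 10.56 and then at 10.02 and 9.72. Nkx6-1, a beta cell factor, stood at 12.24, 12.58, 13.02 and 11.88 and then at 11.48 and 11.08. The groups did not overlap for either gene, and their differences were -1.10 ± 0.22 (adjusted p = 0.003) and -1.15 ± 0.27 (adjusted p = 0.007). Without adult replicate 2 neither passed (adjusted p = 0.0521 and 0.0867, the highest over the alternatives, from lowest values of 0.0016 and 0.0018).

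Irx2 and Pou3f4, both known from alpha cells, were among the falls. Irx2, an Iroquois factor, read 11.36, 11.72, 10.91 and 10.93 at day 0 and 9.07 and 8.95 in adult islets, a difference of -2.22 ± 0.23 (adjusted p = 3.6e-05). Pou3f4, also called Brn4 and a POU domain factor, lay at 8.23 to 9.06 at day 0 and was not well above background in adult islets, at least 2.58-fold lower (adjusted p = 2.6e-04). Mafa, the factor that marks mature beta cells, was not informative on this array. Its levels were 7.02 to 7.26 at day 0 and 7.41 and 7.23 in adult islets, with 1 array of each group above background, and the difference of 0.16 ± 0.15 did not pass (adjusted p = 0.439).

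Among the main islet hormones 2 of 7 rose (28.6%), 1 fell (14.3%) and 4 did not pass, with a median of 0.40. Over all genes 14.8% were higher and 19.4% lower. The fall was that of ghrelin, the hormone of epsilon cells, which are frequent in fetal and rare in adult islets. Ghrl read 14.23, 14.17, 14.37 and 13.74 at day 0 and 8.07 and 8.06 in adult islets, and decreased by 6.06 ± 0.20 (adjusted p = 8.2e-09), the deepest fall of all genes tested. It was intermediate at day 4, at 12.73 and 12.14, and passed on both sides of that time point (adjusted p = 6.3e-04 from day 0 and 7.0e-07 to adult islets). Ppy, the pancreatic polypeptide of PP cells, went the other way, from 10.94, 12.07, 11.21 and 10.87 to 14.67 on both adult arrays, a rise of 3.40 ± 0.30 (adjusted p = 1.2e-05). In adult islets it lay 0.14 to 0.16 below the brightest value of its array, so the rise may be larger than could be read. Sst, the delta cell hormone, rose by 0.82 ± 0.13 (adjusted p = 7.5e-04) from 13.72, 13.93, 13.49 and 13.81 to 14.57 and 14.54. It read 14.58 on both day 4 arrays. In adult islets Sst lay 0.27 below the brightest value of its array. Whether a limit of the scale kept its day 4 and adult levels alike was not tested.

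Transcripts of insulin, glucagon, peptide YY and amylin did not pass in this fit. Ins2 stood at 14.06, 14.09, 14.55 and 14.77 at day 0 and at 14.80 and 14.74 in adult islets, a difference of 0.40 ± 0.22 (adjusted p = 0.176) with overlapping groups. Over the alternatives its adjusted p ran from 0.0155 to 0.422, and it passed as higher after cyclic loess normalization, with 3 rises in the list. Gcg lay between 14.09 and 14.75 at day 0 and at 14.57 and 14.59 in adult islets (0.12 ± 0.17, adjusted p = 0.601). These probes were near the top of the scale: Ins2 was 0.19 to 0.44 below the brightest value of its array at day 0 and 0.04 to 0.07 below it in adult islets, so a larger difference could not be read there. Iapp, amylin, lay further from the brightest value, 2.57 to 3.62 below it at day 0, and its difference of 0.66 ± 0.35 did not pass either (adjusted p = 0.172). That value ran from 0.0073 to 0.41 over the alternatives, the lowest without day 0 replicate 4, where Iapp passed as higher.

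Peptides of gut and nerve cells gave as many falls as rises. Of 13 measured, 4 fell, 4 rose and 5 did not pass, with a median of -0.06. The share was 30.8% each way, against 19.4% lower and 14.8% higher over all genes. Gast, gastrin, a fetal islet peptide in rodents, read 11.82, 12.08, 12.86 and 11.42 at day 0 and was not well above background in adult islets (7.06 and 6.93), where it was at least 27.9-fold lower (adjusted p = 2.2e-06). Cck, cholecystokinin, was likewise lost, from 10.86, 10.65, 11.19 and 10.46 to 7.15 and 6.94, at least 11.7-fold (adjusted p = 1.2e-06). Sct, secretin, fell by 4.42 ± 0.35 (adjusted p = 5.5e-06) from 12.03, 11.47, 11.85 and 11.74 to 7.43 and 7.27. Unlike Gast and Cck it was no lower at day 4, at 12.09 and 12.30, and its fall passed from day 4 to adult islets (adjusted p = 1.9e-05) and not in the earlier step (adjusted p = 0.487). Gip, the glucose-dependent insulinotropic peptide, fell by 0.98 ± 0.19 (adjusted p = 0.003).

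The peptides that rose did so at different times. Vip, the vasoactive intestinal peptide of nerve fibres, was above background on no day 0 array (6.87 to 6.95) and reached 10.85 and 11.74 in adult islets, at least 16.6-fold higher (adjusted p = 5.1e-08), while day 4 arrays were at 6.98 and 6.87. Pdyn, the precursor of dynorphin opioid peptides, rose by 3.99 ± 0.36 (adjusted p = 1.5e-05) from 7.25, 7.85, 7.82 and 7.43 to 11.87 and 11.29. For Pdyn the day 4 arrays already stood at 11.79 and 11.59. Gal, galanin, a peptide that inhibits insulin release, rose by 1.13 ± 0.14 (adjusted p = 1.4e-04), and Tac1, the precursor of substance P, by 1.28 ± 0.19 (adjusted p = 4.1e-04). Npy, neuropeptide Y, did not pass between the end points (-0.51 ± 0.33, adjusted p = 0.266) and was brightest at day 4 (13.69 and 13.56, against 10.71 and 11.10 in adult islets).

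Genes of beta cell maturation and glucose sensing were mostly higher in adult islets or did not pass. Of 22 measured, 12 rose, 1 fell and 9 did not pass, with a median of 0.996. The fall was that of Npy1r, at -0.39, which did not pass without adult replicate 1 (difference -0.33). There were fewer rises without adult replicate 1 or 2, and 2 falls without day 0 replicate 2 or 4. With the mean of all probes of a gene, or with its second brightest probe, there were 3 falls. Ucn3, urocortin 3, the maturity marker that drives somatostatin release, was at 7.30, 7.08, 7.28 and 7.35 at day 0, with 3 of 4 arrays above background. It reached 12.24 and 11.87 in adult islets, a rise of 4.80 ± 0.12 (adjusted p = 1.4e-09). Cox6a2, the muscle and islet form of a cytochrome c oxidase subunit, rose by 4.84 ± 0.12 (adjusted p = 1.4e-09) from 7.15, 7.52, 7.39 and 7.51 to 12.19 and 12.26. Syt4, a synaptotagmin that sets the calcium sensitivity of insulin release in mature mouse beta cells, rose by 4.35 ± 0.14 (adjusted p = 5.0e-09) from 7.29, 7.64, 7.55 and 7.23 to 11.85 and 11.72. These 3 were the steepest members of the list, and on day 4 they were well below the adult level: 7.46 and 7.38 for Ucn3, 7.89 and 8.08 for Cox6a2 and 8.89 and 8.81 for Syt4. Syt4 had already risen by then (adjusted p = 1.8e-04 between day 0 and day 4), and Cox6a2 passed that step as well (adjusted p = 0.013, and at most 0.174 with 1 array left out), whereas Ucn3 did not (adjusted p = 0.426). The step from day 4 to adult islets passed for each (adjusted p = 1.2e-08, 2.1e-08 and 7.1e-07).

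Bace2 and G6pc2, also maturation genes, were closer to the adult than to the day 0 level by day 4. Bace2, a protease that cleaves the beta cell protein Tmem27, went from 7.998, 8.69, 8.47 and 8.37 through 11.39 and 11.41 at day 4 to 11.96 and 11.92. It rose by 3.56 ± 0.17 over the whole span (adjusted p = 1.7e-07). G6pc2, the islet glucose-6-phosphatase, rose by 3.10 ± 0.43 (adjusted p = 3.0e-04) from 9.98, 10.96, 9.77 and 10.81 to 13.31 and 13.64, with 12.66 and 12.77 at day 4. Neither gene passed between day 4 and adult islets (adjusted p = 0.104 and 0.392). Slc30a8, the zinc transporter of insulin granules, rose by 1.93 ± 0.23 (adjusted p = 1.1e-04) and Slc2a2, the glucose transporter GLUT2, by 1.66 ± 0.32 (adjusted p = 0.003). Trpm5, a calcium-activated cation channel, went from 7.44, 7.91, 8.10 and 7.83 to 10.28 and 9.99 (2.31 ± 0.17, adjusted p = 2.8e-06) and was at 7.42 and 7.27 on day 4. The GLP-1 receptor, Glp1r, lay near background on all 6 arrays (7.02 to 7.29) and gave no call (adjusted p = 0.218).

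**Figure D2:**
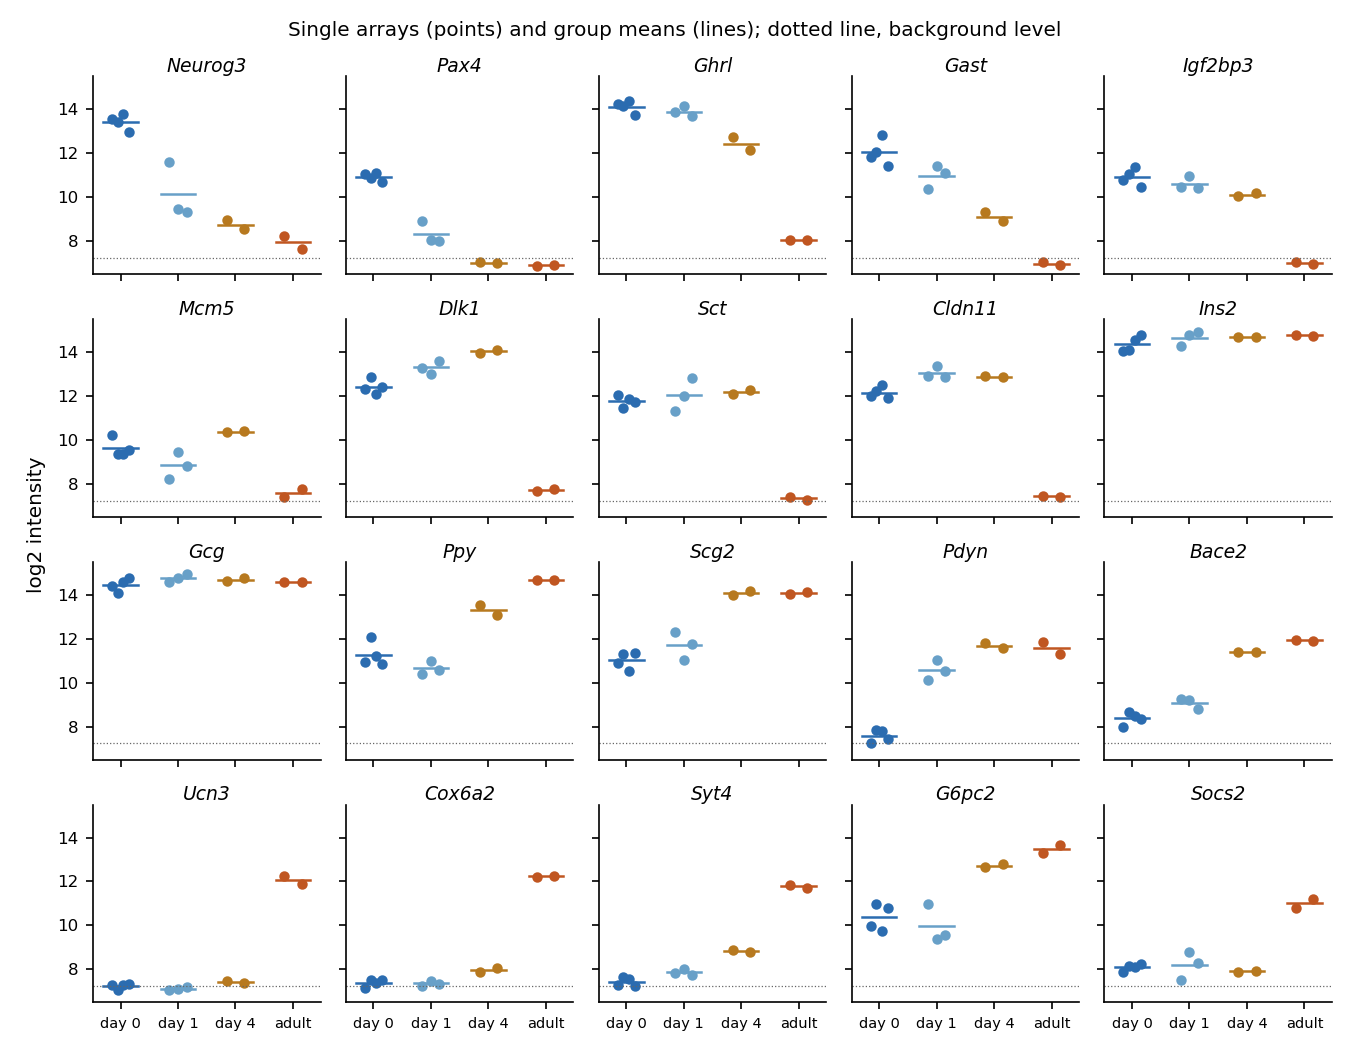
Log2 intensity (y axis) of 20 genes on single arrays (points) at day 0, day 1, day 4 and in adult islets, with group means as short lines and the background level dotted. By day 4 Neurog3 is far lower than at day 0 and Pax4 is not well above background. Dlk1 is higher at day 4 than at day 0, Sct and Cldn11 are no lower, and each of them is low in adult islets. Scg2, Pdyn and Bace2 are at or near adult levels at day 4. Ucn3, Cox6a2, Syt4 and Socs2 are highest in adult islets, Syt4 after a first rise at day 4.

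The secretory machinery rose in part. Of 25 measured granule and exocytosis genes, 12 rose (48%), 3 fell (12%) and 10 did not pass, with a median of 0.46. Over all genes 14.8% were higher and 19.4% lower, so the share of falls was below that over all genes. Without day 0 replicate 2 there were 5 falls. Resp18, a granule protein of endocrine cells, rose by 3.11 ± 0.23 (adjusted p = 3.8e-06) from 11.31, 11.61, 10.96 and 10.59 to 14.23 on both adult arrays. Scg2, secretogranin II, went from 10.88, 11.31, 10.52 and 11.37 to 14.06 and 14.13 (3.07 ± 0.31, adjusted p = 3.5e-05) and was at 14.01 and 14.19 by day 4. Scg5, the chaperone of the prohormone convertase PC2, rose by 1.80 ± 0.24 (adjusted p = 2.0e-04), Pcsk1n, the proSAAS inhibitor of PC1/3, by 1.59 ± 0.20 (adjusted p = 1.7e-04), and Chga, chromogranin A, by 1.56 ± 0.27 (adjusted p = 0.001). Chromogranin B did not follow: Chgb lay at 13.08 to 13.91 at day 0 and at 12.60 and 13.32 in adult islets (-0.61 ± 0.27, adjusted p = 0.107). The falls were Syt13, a synaptotagmin, by 1.07 ± 0.15 (adjusted p = 3.4e-04), Cadps, which primes dense core vesicles, by 1.05 ± 0.20 (adjusted p = 0.002), and Stx1a, the plasma membrane syntaxin, by 0.79 ± 0.12 (adjusted p = 6.7e-04). Pcsk1 was near background in both groups (adjusted p = 0.054), and Pcsk2 and Cpe were not analysed here.

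Of 15 measured ion channels, 2 rose (13.3%) and 4 fell (26.7%), shares near the 14.8% and 19.4% over all genes, with a median of -0.18 and 1 fall without either adult replicate. Cacna1h, a low-voltage-activated T-type calcium channel, read 11.32, 11.61, 11.59 and 11.18 at day 0 and 8.40 and 8.31 in adult islets, a difference of -3.07 ± 0.20 (adjusted p = 1.5e-06). Day 4 lay between, at 10.42 and 10.35. Abcc8, the sulfonylurea receptor of the ATP-sensitive potassium channel, fell by 0.91 ± 0.26 (adjusted p = 0.019), which ran from 0.0020 to 0.129 over the alternatives and was above the threshold without either adult replicate. Kcnmb2, a beta subunit of calcium-activated potassium channels, rose by 0.63 ± 0.11 (adjusted p = 0.002).

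Fetal growth genes fell in part. Of 15 measured imprinted genes, 8 fell (53.3%), 1 rose (6.7%) and 6 did not pass, with a median of -1.07. Without day 0 replicate 4 there were 2 rises. Of 9 oncofetal genes, 5 fell (55.6%), 0 rose and 4 did not pass, with a median of -2.15. Over all genes 19.4% were lower and 14.8% higher. Mdk, midkine, a heparin-binding fetal growth factor, went from 13.61, 13.30, 13.03 and 13.09 to 8.12 and 7.91, a difference of -5.24 ± 0.19 (adjusted p = 1.6e-08). It was at 9.69 and 9.20 by day 4. Dlk1, a paternally expressed Notch-like membrane protein also called Pref-1, read 12.34, 12.87, 12.10 and 12.42 at day 0 and 7.71 and 7.80 in adult islets, a difference of -4.68 ± 0.21 (adjusted p = 7.3e-08). Unlike Mdk it first rose, to 13.97 and 14.12 at day 4 (adjusted p = 9.6e-04 against day 0). The paired imprinted growth regulators both fell: Igf2, the fetal growth factor, fell by 3.65 ± 0.61 (adjusted p = 1.0e-03), from 13.55, 12.14, 12.05 and 13.48 to 9.31 and 9.01, and Cdkn1c, the growth-restraining inhibitor p57, fell by 4.40 ± 0.72 (adjusted p = 8.8e-04), from 12.48, 11.52, 12.22 and 12.86 to 7.96 and 7.77.

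Grb10, an adaptor that dampens insulin and IGF signalling, fell by 3.31 ± 0.14 (adjusted p = 6.2e-08) and remained at 10.28 and 10.08 in adult islets. Mest, a paternally expressed gene of fetal tissue, fell by 2.52 ± 0.54 (adjusted p = 0.004). The imprinted rise was Impact, a regulator of the kinase Gcn2, at 1.60 ± 0.22 (adjusted p = 3.0e-04). Among the mRNA-binding proteins of the Igf2bp family, Igf2bp3 read 10.78, 11.08, 11.37 and 10.48 at day 0 and 7.06 and 6.97 in adult islets, at least 12.9-fold lower (adjusted p = 6.3e-07), and Igf2bp1 was at least 4.56-fold lower (adjusted p = 1.2e-06). Neither was above background on an adult array, but at day 4 Igf2bp3 was still at 10.05 and 10.18. Ptn, pleiotrophin, the relative of midkine, varied from 8.34 to 10.26 at day 0 and did not pass (-1.75 ± 0.69, adjusted p = 0.074), although both adult arrays, at 7.57 and 7.55, lay below all 4.

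Of the 15 largest falls, 5 belong to no list. Cldn11, a tight junction claudin, went from 11.99, 12.24, 12.52 and 11.92 to 7.47 and 7.43, a difference of -4.72 ± 0.18 (adjusted p = 2.5e-08). Slc38a5, a neutral amino acid transporter, dropped by 4.47 ± 0.26 (adjusted p = 5.3e-07) from 14.23, 13.91, 14.74 and 14.71 to 10.24 and 9.62. Neither was lost by day 4, at 12.90 and 12.86 for Cldn11 and 13.81 and 13.99 for Slc38a5. Cldn11 passed as higher at day 4 than at day 0 (adjusted p = 0.027). That call was absent without day 0 replicate 1 or 4 and without either day 4 replicate. Wfdc2, a secreted protein with whey acidic protein domains, fell by 3.73 ± 0.41 (adjusted p = 5.7e-05). Serpina1b and Serpina1d, near-identical alpha-1-antitrypsin genes whose probes may share signal, differed by -3.91 ± 0.27 and -3.89 ± 0.29 (adjusted p = 2.2e-06 and 3.1e-06).

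Cell cycle genes were mostly lower in adult islets. Of 23 measured DNA replication genes, 16 fell and 0 rose (median -0.91), and of 18 genes of mitosis and cytokinesis, 12 fell and 0 rose (median -0.79). The replication count was 10 without adult replicate 1 and 11 without adult replicate 2. The mitosis count was far less firm, with 2 and 5 falls without those replicates and 6 after cyclic loess. Mcm2, a subunit of the replicative helicase, read 8.97, 9.26, 8.77 and 8.79 at day 0 and 7.54 and 7.55 in adult islets (fell by 1.40 ± 0.14, adjusted p = 3.2e-05). Mcm5, of the same complex, fell by 2.05 ± 0.34 (adjusted p = 9.3e-04), and Uhrf1, which maintains DNA methylation at replication, by 2.16 ± 0.41 (adjusted p = 0.002). Cdc20, the activator of the anaphase-promoting complex, went from 9.91, 9.26, 8.68 and 8.75 to 7.22 and 7.50 (fell by 1.79 ± 0.36, adjusted p = 0.003). Aurka, a mitotic kinase, was above background on no adult array and at least 2.15-fold lower there (adjusted p = 0.001).

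The day 4 arrays had not lost these transcripts. Mcm2 was at 9.15 and 9.20, Mcm5 at 10.37 and 10.41 and Cdc20 at 9.49 and 9.32 on day 4, where none passed against day 0 (adjusted p = 0.337, 0.183 and 0.706) and each passed against adult islets (adjusted p = 7.4e-05, 7.3e-04 and 0.007, the last up to 0.056 with 1 array left out). Top2a, a topoisomerase of dividing cells, was in fact higher at day 4, at 9.03 and 9.19, than at day 0, at 7.43 to 8.27 (adjusted p = 0.007, and at most 0.101 with 1 array left out), and did not pass between day 0 and adult islets (adjusted p = 0.101). Among inhibitors and D cyclins, 3 of 10 rose and 3 fell, with 1 rise and 2 falls without either adult replicate. In the full fit each share was 30%, against 14.8% higher and 19.4% lower over all genes. The deepest fall was that of the inhibitor Cdkn1c, described above, at -4.40. Cdkn2c, the inhibitor p18, rose by 0.70 ± 0.10 (adjusted p = 3.9e-04). Ccnd2, the D cyclin of beta cell growth in mice, stood at 9.51, 8.61, 9.41 and 9.35 and then at 10.81 and 10.51, a rise of 1.43 ± 0.38 (adjusted p = 0.013, from 0.0077 to 0.11 over the alternatives, the highest without adult replicate 1).

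Chromatin regulators gave 4 falls (33.3%) and 1 rise (8.3%) among 12, against 19.4% and 14.8% over all genes. Hdac1 and Hdac2, the class I histone deacetylases, fell by 1.07 ± 0.14 and 1.04 ± 0.15 (adjusted p = 2.1e-04 and 3.4e-04), and Cbx7, a Polycomb reader, rose by 1.13 ± 0.19 (adjusted p = 9.6e-04). Of 15 Notch pathway and Id genes, 2 fell (13.3%, below the 19.4% over all genes) and 0 rose. One of these was Mfng, and there was 1 fall without adult replicate 1 or day 0 replicate 4. Of 18 measured genes that mature beta cells are known to repress, 4 fell (22.2%, against 19.4% over all genes) and 0 rose, with a median of -0.44, and without adult replicate 1 there were 2 falls and 1 rise. Mgst1, a glutathione transferase, read 10.74, 9.99, 9.27 and 9.85 at day 0 and 7.49 and 7.85 in adult islets, a difference of -2.29 ± 0.31 (adjusted p = 2.4e-04). Ldha, lactate dehydrogenase A, fell by 2.14 ± 0.63 (adjusted p = 0.023) from 9.76 to 10.55 on day 0 arrays to 7.68 and 8.22, and did not pass without adult replicate 1 or 2 (adjusted p = 0.158 and 0.0769, within a range of 0.0016 to 0.158 over the alternatives). Slc16a1, Hk1 and Rest were not above background on enough arrays to be tested.

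Oxidative phosphorylation genes fell or did not pass. Of 21 oxidative phosphorylation subunits 14 fell and 0 rose, with a median of -0.73. The count was 6 without adult replicate 1, 7 without adult replicate 2 and 9 after cyclic loess, where the median was -0.47. Atp5b, the catalytic beta subunit of ATP synthase, stood at 13.98, 14.34, 14.45 and 13.71 and then at 12.34 and 12.84, a difference of -1.53 ± 0.21 (adjusted p = 2.7e-04). Atp5a1, its alpha partner, fell by 1.22 ± 0.24 (adjusted p = 0.003). Cox6a2, which rose, was listed with the maturation genes and runs opposite to these subunits. In glycolysis 2 of 11 rose and 2 fell, 18.2% each way and so near the shares over all genes, with 1 fall without either adult replicate. Eno2, the enolase of neurons and endocrine cells, rose by 3.56 ± 0.27 (adjusted p = 3.5e-06) from 7.51, 7.68, 7.70 and 7.52 to 11.10 and 11.22, and Pfkp, a phosphofructokinase, was above background in adult islets alone, at least 2.98-fold higher than at day 0 (adjusted p = 3.1e-04). Gapdh fell by 0.49 ± 0.10 (adjusted p = 0.004), a call that was absent after cyclic loess (adjusted p = 0.166, the highest over the alternatives, the lowest being 0.0015).

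**Figure D3:**
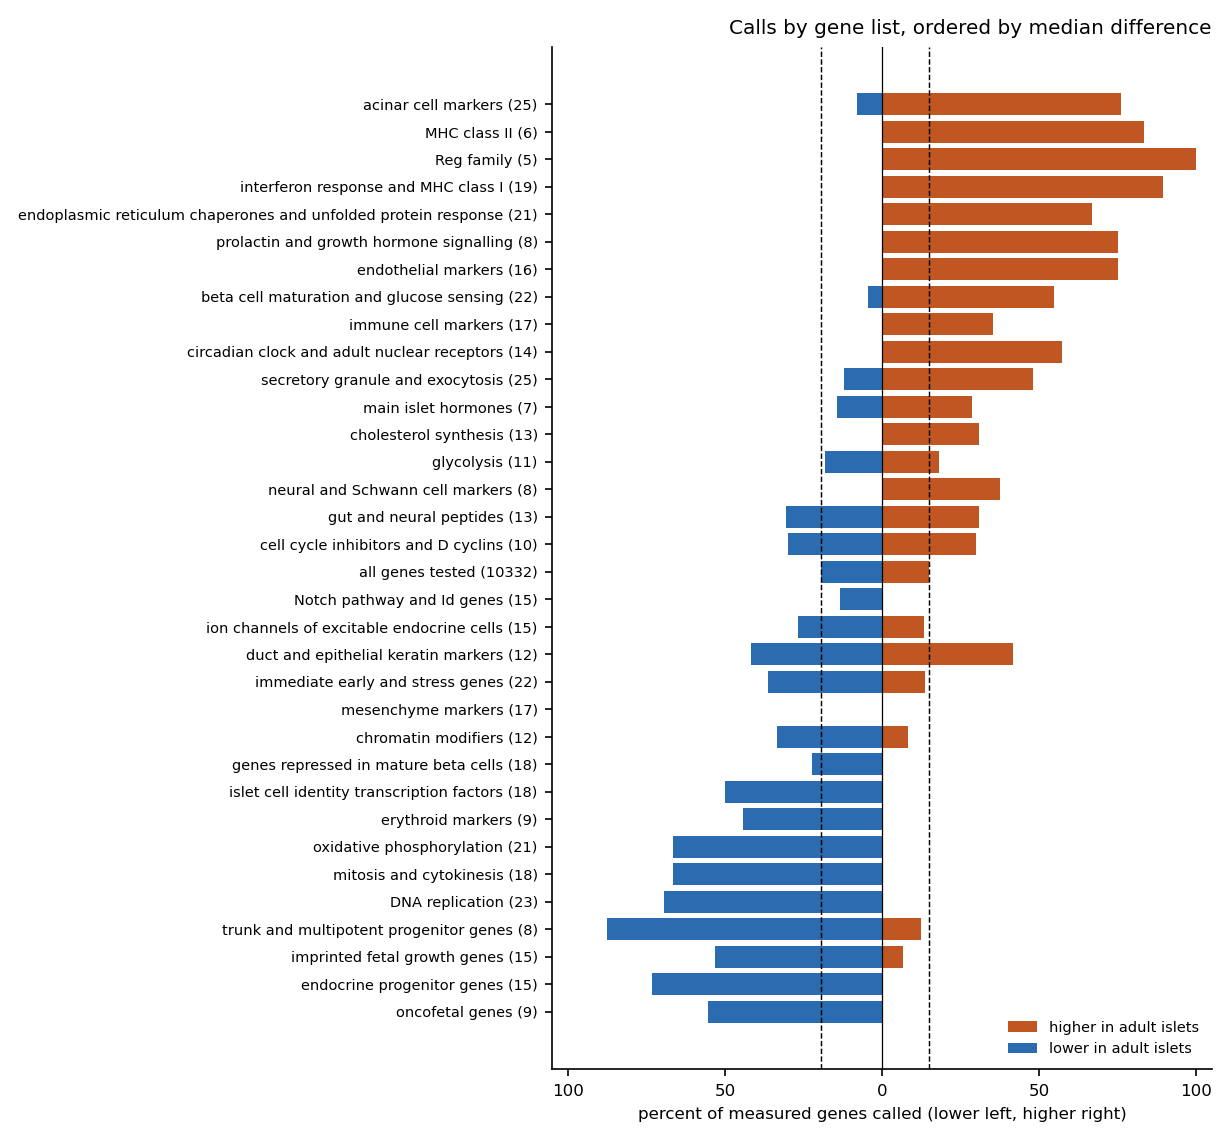
Percent of the measured genes of each list (number in parentheses) that passed an adjusted p under 0.05, with rises to the right and falls to the left, ordered by the median difference; dashed lines mark the shares over all 10332 genes, 14.8% higher and 19.4% lower. Oncofetal, endocrine progenitor and cell cycle lists lie at the falling end, and acinar, MHC class II, Reg and interferon lists at the rising end.

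Genes of hormone signalling and of the clock rose or did not pass. Of 8 measured genes of prolactin and growth hormone signalling, 6 rose, 0 fell and 2 did not pass, with a median of 1.16. Both hormones act through Jak2 and Stat5, and Socs2 and Cish are feedback inhibitors that the pathway itself induces. Socs2 went from 7.86, 8.16, 8.10 and 8.24 to 10.79 and 11.21, a rise of 2.91 ± 0.29 (adjusted p = 2.8e-05), and Cish rose by 2.08 ± 0.22 (adjusted p = 4.9e-05). Socs3, a cytokine-induced inhibitor of the same family, rose by 3.02 ± 0.20 (adjusted p = 1.2e-06) and Jak2 by 1.46 ± 0.26 (adjusted p = 0.002). None of the 4 passed as higher at day 4: Socs2 was at 7.90 and 7.92 and Cish at 7.41 and 7.39, below its day 0 level (adjusted p = 0.008, and at most 0.0898 with 1 array left out). Of 14 clock and nuclear receptor genes, 8 rose, 0 fell and 6 did not pass (median 0.68). Bhlhe40, a repressor of the clock loop, rose by 2.97 ± 0.39 (adjusted p = 2.2e-04) from 7.38 to 7.70 to 10.39 and 10.63. Dbp, a clock output factor, rose by 2.44 ± 0.25 (adjusted p = 3.3e-05), and Nr1d1, the receptor Rev-erb alpha, by 1.21 ± 0.18 (adjusted p = 5.0e-04). The hour at which the tissue was taken, which sets the level of clock genes, is not given in the sources used here.

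Of 21 measured genes of the endoplasmic reticulum, 14 rose, 0 fell and 7 did not pass, with a median of 1.31. The chaperones Hspa5 (BiP) and Hsp90b1 (Grp94), named after their values were seen, were among those that did not pass (0.40 ± 0.33 and 0.35 ± 0.30, adjusted p = 0.375 and 0.391). Chac1, which degrades glutathione and is induced by Atf4, read 7.79, 8.14, 8.30 and 7.85 at day 0 and 12.02 and 12.03 in adult islets, a rise of 4.01 ± 0.19 (adjusted p = 1.6e-07). Ddit3, the stress factor CHOP, rose by 3.44 ± 0.27 (adjusted p = 4.7e-06) from 7.97 to 8.53 at day 0 to 11.84 and 11.57. The levels at day 4 differed between these genes, with 10.87 and 11.10 for Chac1 but 8.50 and 8.67 for Ddit3. Dnajb9, a chaperone partner of BiP, rose by 1.87 ± 0.31 (adjusted p = 8.9e-04). Atf4 itself varied at day 0 (9.59, 7.51, 7.72 and 9.31) and stood at 11.48 and 11.76 in adult islets (3.09 ± 0.76, adjusted p = 0.010), which did not pass without adult replicate 1 or 2 (adjusted p = 0.0547 and 0.0771, within 0.0045 to 0.0771 over the alternatives). Acinar cells are rich in endoplasmic reticulum, and acinar markers rose in the same samples: their summed intensity, as log2, was 15.14 to 16.53 at day 0 and 18.42 to 18.72 in adult islets. Their part in this result was not tested. Of 13 cholesterol synthesis genes, 4 rose (30.8%, against 14.8% over all genes) and 0 fell. Msmo1, a sterol oxidase, rose by 2.09 ± 0.35 (adjusted p = 0.001) and Sqle, squalene epoxidase, by 1.24 ± 0.18 (adjusted p = 3.3e-04).

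The promoter of Chac1 is shown because it carries a C/EBP-ATF response element, the composite site to which Atf4 and its partners bind. The 250 bases before its start, chr2:119350992-119351241 on the plus strand, are RefSeq sequence of GRCm38.p6, with the match in capitals (TGATGNAA on either strand, here on the strand opposite to the gene).
Chac1: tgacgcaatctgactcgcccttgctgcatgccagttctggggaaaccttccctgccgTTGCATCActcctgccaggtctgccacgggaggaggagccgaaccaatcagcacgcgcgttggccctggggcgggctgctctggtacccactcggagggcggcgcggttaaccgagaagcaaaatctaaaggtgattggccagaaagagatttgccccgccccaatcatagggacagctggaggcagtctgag
The same letters were found in 3 of 19 list members with a promoter in the table (Herpud1, Asns and Chac1), and in 2.75% of 8375 tested genes. Herpud1, a component of protein degradation at the reticulum, rose by 1.39 ± 0.10 (adjusted p = 3.3e-06) to 13.26 and 13.10, and Asns, asparagine synthetase, by 1.51 ± 0.23 (adjusted p = 5.7e-04) to 12.43 and 12.70. These members were named after their values were seen, and a match is a description of the letters, not a shown binding site.

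Of 22 immediate early genes, 3 rose (13.6%) and 8 fell (36.4%), against 14.8% higher and 19.4% lower over all genes. The share of rises was thus near that over all genes. Both counts were smaller without adult replicate 1 or 2. The median of -0.33 depended on the probe, and was positive with the mean of all probes of a gene or with its second brightest probe. Fos, a transcription factor induced within minutes of a stimulus, read 11.68, 11.83, 12.33 and 12.44 at day 0 and 10.75 and 9.56 in adult islets, a difference of -1.92 ± 0.37 (adjusted p = 0.003) that did not pass without adult replicate 2 (adjusted p = 0.0511, the highest of its alternatives, the lowest being 0.0012). Hspa1a, a heat shock protein, stood at 11.42 to 12.77 at day 0 and far apart on the adult arrays, at 11.002 and 9.57. Its difference of -1.84 ± 0.49 (adjusted p = 0.014) did not pass without adult replicate 2 (adjusted p = 0.202, the highest of its alternatives, the lowest being 0.0079). Both were lower at day 4, at 8.16 and 7.76 for Fos and 7.54 and 7.50 for Hspa1a. How long the tissue was handled before lysis is not given in the sources used here.

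Genes of immune recognition were higher in adult islets. Of 19 measured genes of the interferon response and MHC class I, 17 rose and 0 fell, with a median of 1.87, and of 6 MHC class II genes 5 rose, with a median of 3.57. Ifit3, an interferon-induced antiviral protein, read 7.16, 7.38, 7.20 and 7.26 at day 0 and 11.81 and 11.84 in adult islets, a rise of 4.57 ± 0.38 (adjusted p = 8.4e-06). Gbp2, an interferon-induced GTPase, rose by 2.99 ± 0.16 (adjusted p = 2.8e-07), and B2m, the invariant light chain of MHC class I, by 3.36 ± 0.64 (adjusted p = 0.002) from 9.10 to 10.32 to 12.64 and 13.33. Day 4 arrays showed none of the gain in Ifit3 (7.42 and 7.36) or Gbp2 (at most 7.11). Cd74, the invariant chain of MHC class II, went from 7.27, 7.21, 7.56 and 7.37 to 11.38 and 12.19 (4.43 ± 0.22, adjusted p = 1.9e-07), and H2-Ab1, a class II beta chain, from 7.13 to 7.32 to 10.66 and 11.43 (3.83 ± 0.20, adjusted p = 2.4e-07).

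The promoters of Ifit3 and Isg15 are shown because they hold the element bound by interferon regulatory and STAT complexes, searched as GAAA, any 2 bases and GAAA on either strand and set in capitals. They are the 250 bases before the start of Ifit3, chr19:34583279-34583528 on the plus strand, and of Isg15, chr4:156200819-156201068 on the minus strand, from RefSeq, GRCm38.p6.
Ifit3: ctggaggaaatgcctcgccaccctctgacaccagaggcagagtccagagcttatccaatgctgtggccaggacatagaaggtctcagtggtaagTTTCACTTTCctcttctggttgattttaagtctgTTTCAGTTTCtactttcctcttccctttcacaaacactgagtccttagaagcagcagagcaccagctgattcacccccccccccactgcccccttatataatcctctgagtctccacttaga
Isg15: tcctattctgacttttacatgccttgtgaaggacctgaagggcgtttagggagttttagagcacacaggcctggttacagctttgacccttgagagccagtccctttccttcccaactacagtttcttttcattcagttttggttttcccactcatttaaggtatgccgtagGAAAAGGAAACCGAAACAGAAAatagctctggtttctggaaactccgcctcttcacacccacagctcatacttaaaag
Ifit3 holds 2 matches, on the strand opposite to the gene, and Isg15 holds 3 that overlap each other. The element was present in 7 of 16 list members with a promoter in the table, 6 of them among the 14 that were called, and in 3.18% of 8375 tested genes. Isg15, a ubiquitin-like interferon product named here for its sequence after its values were seen, went from 7.08, 7.28, 7.31 and 7.08 to 9.20 and 10.17 (2.50 ± 0.26, adjusted p = 4.5e-05). Further searches, also on either strand, were made for the clock E-box (CACGTG) and the Y box (CCAAT). The E-box was found in 2 of 11 clock list members, 1 of them among the 7 that were called, against 9.79% of tested genes. The Y box was found in 12 of 16 mitosis genes and 4 of 4 MHC class II genes, against 40.9% of tested genes.

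Markers of cells other than endocrine cells differed between the groups. Of 25 acinar markers, 19 rose, 2 fell and 4 did not pass, with a median of 4.30. Ctrl, a chymotrypsin-like protease, had the largest rise of all genes tested, from 7.22, 7.34, 7.20 and 7.19, with 1 of 4 arrays above background, to 14.63 and 14.49 (7.33 ± 0.15, adjusted p = 4.7e-10). Zg16, a zymogen granule lectin, rose from at most 7.48 to 14.59 and 14.16 (adjusted p = 5.0e-06), and Gp2, the main glycoprotein of zymogen granule membranes, was above background on no day 0 array and at least 56.4-fold higher in adult islets (adjusted p = 4.5e-09). Among the acinar transcription factors of the list, Bhlha15 did not fall. The falls were Ptf1a, from 9.39, 9.21, 7.87 and 8.69 to 7.69 and 7.26 (-1.31 ± 0.37, adjusted p = 0.019), and Rbpjl, from 10.85, 9.82, 8.99 and 9.61 to 8.76 and 7.98 (-1.45 ± 0.49, adjusted p = 0.042). Neither passed without adult replicate 1 or 2, and the adjusted p ran from 0.0014 to 0.157 for Ptf1a and from 0.013 to 0.295 for Rbpjl over the alternatives. All 5 measured Reg genes, secreted lectins of acinar and stressed islet cells, rose, with a median of 2.63. Reg2 was at least 24.8-fold higher (adjusted p = 3.3e-09), while Reg1 went from 8.47 to 10.17 at day 0 to 14.69 and 14.48.

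Vascular and blood cell markers moved as well. Of 16 endothelial markers, 12 rose and 0 fell, with a median of 1.01, and 10 rose without adult replicate 1 and 7 without adult replicate 2. Their summed intensity, as log2, was 11.71 to 12.56 at day 0 and 13.49 to 13.52 in adult islets, and none was at background on both adult arrays. Plvap, a protein of fenestrated capillaries, read 9.12, 7.45, 7.24 and 8.36 and then 11.16 and 11.09 (3.08 ± 0.42, adjusted p = 2.4e-04). Of 17 immune cell markers 6 rose and 0 fell, with a median of 0.69, or 0.18 without adult replicate 2. Their summed intensity was 11.92 to 12.59 at day 0 and 12.82 and 14.05 in adult islets, higher in adult replicate 2, which was also the higher for each of Cd74, H2-Ab1 and B2m. Cd14, a monocyte receptor, rose by 2.54 ± 0.24 (adjusted p = 2.2e-05). The part of immune cells in the MHC class II rise was not tested.

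Erythroid markers fell for 4 of 9 (44.4%, against 19.4% over all genes), with fewer falls without adult replicate 1 or 2. Their summed intensity was 13.65 to 15.01 at day 0 and 11.44 to 12.22 in adult islets. Slc4a1, the red cell anion exchanger, fell by 0.96 ± 0.17 (adjusted p = 0.001). Of 17 mesenchyme markers 0 passed the adjusted threshold in limma (lowest adjusted p = 0.0834), 1 had an unadjusted p under 0.05, and 1 rose in the fit of the 6 arrays alone, in that of the 11 pancreatic arrays and without day 0 replicate 4. Their summed intensity overlapped between the groups (11.94 to 13.69 at day 0 and 12.55 to 12.80 in adult islets). Duct and keratin markers gave 5 rises and 5 falls among 12, but 1 rise and 2 falls without adult replicate 1, 1 rise and 3 falls without adult replicate 2 or with no filter on dim probes, and 2 or 3 rises without a day 0 array. Ambp, a plasma protein precursor made mainly in liver, fell by 2.71 ± 0.21 (adjusted p = 4.8e-06), and Tspan8, a tetraspanin, rose by 1.95 ± 0.23 (adjusted p = 1.0e-04). Of 8 neural and Schwann cell markers 3 rose (37.5%, against 14.8% over all genes) and 0 fell (1 fall without day 0 replicate 2). Among the rises was Ednrb, an endothelin receptor, from 7.54 to 8.65 to 11.36 and 10.90 (3.12 ± 0.30, adjusted p = 2.4e-05).

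**Figure D4:**
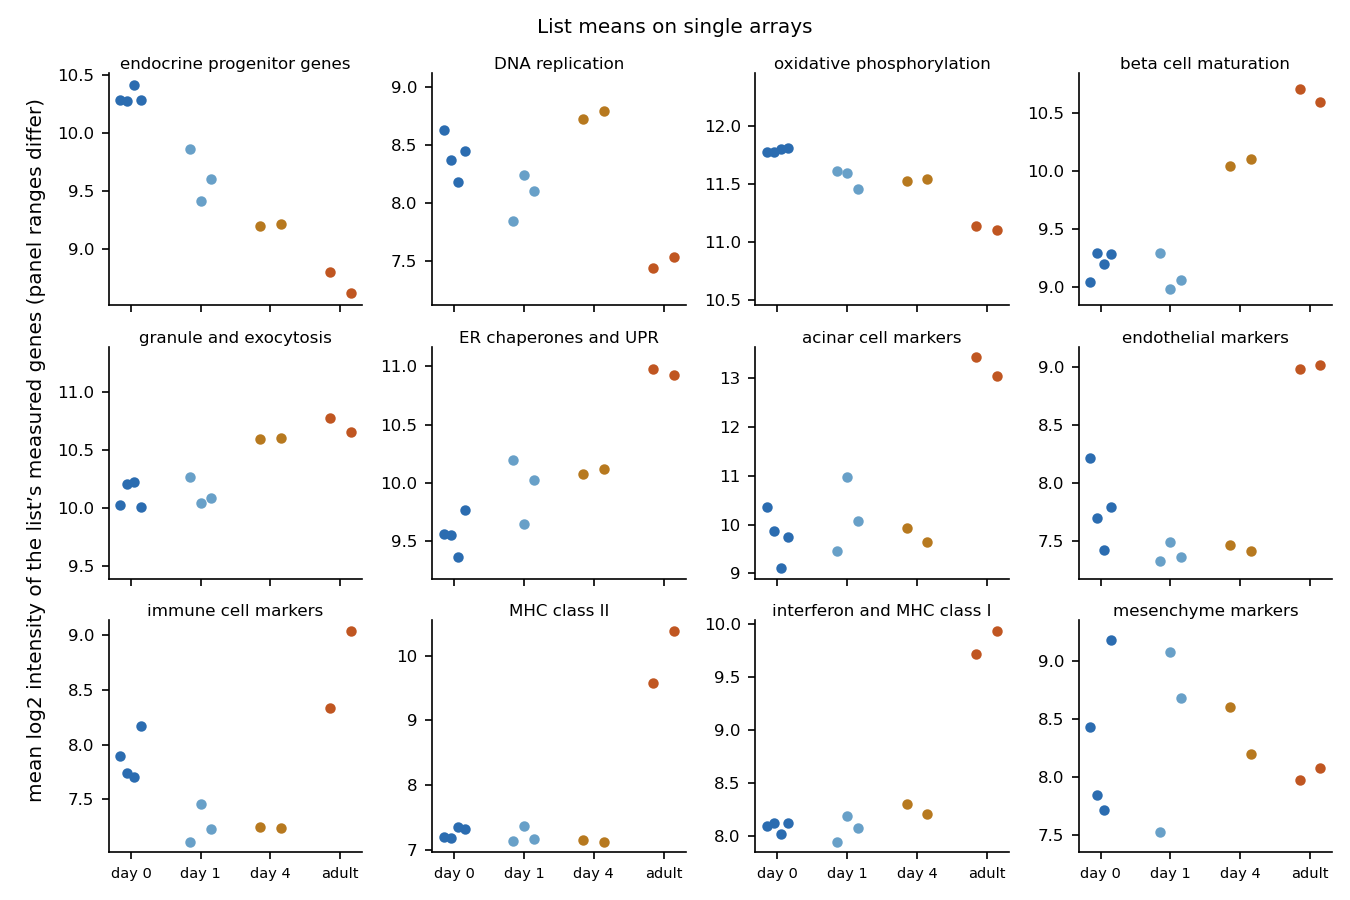
Mean log2 intensity of the measured genes of 12 lists (y axis, ranges differ between panels) on single arrays at day 0, day 1, day 4 and in adult islets. Endocrine progenitor genes step down at each stage, DNA replication is highest at day 4, beta cell maturation rises by day 4 and again in adult islets, and acinar, endothelial, MHC class II and interferon lists are high on the adult arrays.

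Levels on the day 4 arrays can be set beside both ends of the comparison. The mean level of the acinar markers was 9.94 and 9.64 at day 4 and 13.43 and 13.04 in adult islets. The part of such other cells in the later step was not tested. Between day 4 and day 0, 1188 genes passed (11.5%), 559 higher (5.41%) and 629 lower (6.09%) at day 4. Between adult islets and day 4, 1501 passed (14.5%), 782 higher (7.57%) and 719 lower (6.96%) in adult islets. With a single day 4 array the first count was 192 (without day 4 replicate 1) or 218 (without day 4 replicate 2). Leaving out 1 array gave 699 and 679 for the later step without those arrays, and 860 and 780 without adult replicates 1 and 2. These comparisons share samples with the main one and with each other, so levels are set side by side and overlaps are not tested. Day 4 arrays correlated with adult arrays at 0.905 to 0.912, against 0.827 to 0.870 for day 0. The losses of Neurog3, Pax4, Mdk and Cck passed between day 0 and day 4. Mdk and Cck passed as lower in the later step too (adjusted p = 0.001 and 0.037, the latter at most 0.214 with 1 array left out). Those of Dlk1, Sct, Cldn11, Slc38a5, Mcm2 and Mcm5 were falls in the later step alone. The gains of Scg2, Pdyn and Bace2 passed in the early step and not in the later one, and those of Ucn3, Vip, Socs2, Dbp, Ifit3 and Cd74 in the later step and not in the early one. With any 1 array left out, each of these genes kept its side of the threshold in the step named, apart from Cck in the later one. Since groups of 2 arrays limit the precision at both ends of the later step, a gene that missed the threshold in one step cannot be said to have stayed constant there.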

How the data were processed

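Total RNA of 13 samples was labelled as biotinylated cRNA and hybridised to Illumina arrays, per the labels' protocols. The authors deposited log2 values, normalized between arrays by a method not given in the sources used here. Base 2 was inferred from their range, 6.73 to 15.20, and scale and centring stay unknown. A table of signals before normalization was not used, since its 13 columns match no sample. The dated array annotation names 1 gene for 23978 of 25697 probes, several for 0 and none for 1719; symbols updated by gene identifier numbered 0.

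The background level, 7.24, is the mode of all values (6.98) plus 5 SD of those below it (0.0526). Probes above it on at least 2 arrays were kept, and the brightest per symbol was taken. Group means of 5 groups over 13 arrays were fitted with limma 3.58.1 in R 4.3.3 (lmFit and eBayes, 8 residual and 2.957 prior degrees of freedom), which shares 1 estimate of spread, with Benjamini-Hochberg adjustment over 10332 genes. The steps were checked on simulated data. The number of arrays limits the precision.

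A group with no array above background gives a bound, computed against the higher of that level and the probe's own value. The 33 gene lists (615 symbols, 475 measured) and all choices were made with earlier results of these data known. Named were the 15 largest rises and falls without overlap, up to 4 of each per list, and a set of marker genes, in all 182. Promoters are RefSeq sequences of GRCm38.p6. Alternatives covered the filter, normalization, background, probe choice, fit, replicate block and left-out arrays.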

Additional observations from a re-analysis of the deposited data

Results flagged for a closer look

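Among the day 0 arrays, 3 values stood apart from the other arrays of their group by Dixon's criterion at the 95% level, which flags about 1 in 20 groups by chance, while 174 genes and 33 list means were examined. Klf2, a transcription factor of the immediate early list, was at 10.05 in day 0 replicate 2 and at 8.53 to 8.69 in the other arrays. The mean level of the endocrine progenitor list was 10.41 in day 0 replicate 3 and 10.27 to 10.28 in the others. The mean level of the duct and epithelial keratin list was 9.56 in day 0 replicate 4 and 9.90 to 9.97 in the others.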

How the results depend on the processing

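The count of 3537 changed genes was within 1.5 times of itself under each alternative tried except the loss of an adult array, and single left-out arrays gave 1921 to 3427 (953 to 1438 higher, 968 to 2020 lower). For day 4 against day 0 they gave 192 to 1088 (97 to 508 higher, 95 to 623 lower), and for adult islets against day 4, 679 to 860 (410 to 535 higher, 269 to 325 lower). Same-numbered adult and day 0 arrays did not deviate together (correlations -0.083 and -0.040), so the numbers are not taken as pairs. With a replicate block 2850 genes passed in the main comparison, and 572 (250 higher, 322 lower) between day 4 and day 0. The block also gave 4 rises among 7 main islet hormones (median 0.68), where Ins2 and Iapp passed as higher, and 1 rise and 4 falls among the duct markers. Of 163 named calls, 37 were lost without adult replicate 2, 32 without adult replicate 1 and 17 with the block. With the dimmer probe, Runx1t1 rose by 1.39 and Ccnd3 stood at 0.21. Differences between dim probes are compressed on the deposited scale. Background subtraction moved the medians to -1.82 (endocrine progenitor), -2.06 (trunk), -1.02 (identity factors), -0.26 (gut and neural peptides), 0.75 (granule), -0.43 (ion channels), -1.89 (imprinted), -3.66 (oncofetal), -1.69 (mitosis), -1.76 (DNA replication), -0.37 (Notch and Id), -0.75 (chromatin), 1.05 (clock), 2.03 (prolactin), 0.25 (glycolysis), 1.64 (endoplasmic reticulum), 1.14 (cholesterol), 5.26 (Reg), -0.62 (duct), 2.07 (endothelial), 5.63 (MHC class II), 2.65 (interferon) and -1.81 (erythroid). The mean of all probes gave -0.64 (endocrine progenitor), -1.75 (oncofetal), 0.052 (immediate early) and 1.56 (interferon), and the dimmer probe -0.30 (endocrine progenitor), -1.75 (oncofetal), -0.63 (DNA replication), 0.89 (prolactin) and 0.029 (immediate early). The stricter filter gave -0.81 (identity factors), -0.43 (peptides), 1.52 (maturation), 3.95 (Reg) and -0.57 (duct), cyclic loess -0.86 (imprinted), -0.47 (oxidative phosphorylation) and 0.21 (glycolysis), and the replicate block -1.19 (endocrine progenitor). Leaving out single arrays gave medians of -1.64 to -1.27 (endocrine progenitor), -0.21 to -0.048 (ion channels), -2.42 to -2.002 (oncofetal), 0.28 to 0.64 (cholesterol), -0.34 to -0.073 (immediate early) and 2.62 to 2.80 (Reg). Where no cause is named, the cause was not tested.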
